A study of Mus musculus with 6 samples.

Results

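The passenger strands of the miR-17/miR-92a cluster and its paralogs were examined among the microRNAs (miRNAs) bound to AGO2, an Argonaute protein that miRNAs guide to their targets. The 10 members were taken by name from the count tables of mature miRNAs, which list 1978 names, and all 10 were found in both tables. They are the strands of 10 hairpins that are by convention the less used ones: mmu-miR-17-3p, mmu-miR-18a-3p, mmu-miR-19a-5p, mmu-miR-20a-3p, mmu-miR-19b-1-5p and mmu-miR-92a-1-5p of the miR-17/miR-92a cluster, mmu-miR-106a-3p of the miR-106a/miR-363 cluster, and mmu-miR-106b-3p, mmu-miR-93-3p and mmu-miR-25-5p of the miR-106b/miR-25 cluster (mmu, for mouse, is left out of names below). The cells, embryonic stem cells of a mouse line with the genotype Spy3-Ago2 and library names that begin with E14, were grown on gelatin with serum and LIF, and Spy3-AGO2 was captured on a SpyCatcher3 resin. The series held 3 groups of 2 libraries, the miRNA and target libraries of the pull-down and the input libraries of whole lysate, and the values below come from the 2 miRNA libraries, which share this genotype and treatment. The labels state neither that the replicates were separate cultures nor whether the line is a single clone, and the spread between replicates may thus be technical.

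A miRNA hairpin is cut into a duplex of its 5p and 3p arms. Argonaute usually keeps 1 of these strands, the guide, and the other, the passenger, is discarded, with a preference for keeping the strand whose 5′ end is less firmly paired. The miR-17/miR-92a cluster is known for promoting proliferation and survival, is active in embryonic stem cells, and owes this reputation to its guides, of which miR-17-5p and miR-20a-5p share a seed, as do miR-19a-3p and miR-19b-3p. A passenger strand that is found in AGO2 has a seed of its own and so may bind other targets than its guide.

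The mature sequences, from RefSeq on the build GRCm38.p6, are shown because the seed, bases 2 to 8, given in capitals, sorts the members into families. RefSeq sequences matched 9 of the 10 members and miR-19a-5p was not matched. The 6 strands that open with the same 5 bases, among them miR-20b-3p, which is no member but shares a seed with 2 of them, stand first.
miR-17-3p: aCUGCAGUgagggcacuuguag
miR-106a-3p: aCUGCAGUgccagcacuucuuac
miR-20b-3p: aCUGCAGUgugagcacuucuag
miR-20a-3p: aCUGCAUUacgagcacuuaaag
miR-18a-3p: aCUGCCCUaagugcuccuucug
miR-93-3p: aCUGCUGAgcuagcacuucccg
miR-106b-3p: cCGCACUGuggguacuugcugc
miR-19b-1-5p: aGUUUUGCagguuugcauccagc
miR-92a-1-5p: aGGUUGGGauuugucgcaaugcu
miR-25-5p: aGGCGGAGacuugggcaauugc

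Among the 9 members with a sequence there were 8 different seeds, since miR-17-3p and miR-106a-3p have the same one. Of the 1679 names in the tables with a RefSeq sequence, 10 begin with ACUGC, and 5 of these 10 are members. The other 4 members with a sequence begin with other bases. miR-17-3p and miR-106a-3p differed at 6 of 22 positions, and miR-17-3p and miR-20b-3p at 3 of 22. The guides of these hairpins were more alike, miR-17-5p differing from miR-106a-5p at 1 of 23 positions and from miR-20b-5p at 2 of 23. miR-19a-3p and miR-19b-3p differed at 1 of 23. The strands of miR-18a and miR-18b were close on both arms, with 2 differences in 23 positions at 5p and 2 over 21 at 3p. The sources used here do not say how reads matching several names were treated. The counts of miR-17-3p and miR-106a-3p are thus less open to mixing between paralogs than those of their guides. This does not extend to miR-18a and miR-18b.

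Depth was 12562727 counts for the library of replicate 1 and 22908172 for that of replicate 2. A count of 3, taken as the floor, corresponds to 2.39e-05% of replicate 1 and 1.31e-05% of replicate 2, and each member exceeded it in both. As a check of the labelled cell type, 6 listed embryonic stem cell miRNAs held 31.5% and 31.7% of the counts. Most of this was miR-290a-5p, with a mean of 23.8%. The 13 names listed as marks of other cell types held 1.28% and 1.98%, most of it miR-124-3p, a neuronal miRNA, and all 13 were detected in both libraries; their part in the values below was not tested. Without a control pull-down among the tables used here, no background was subtracted. In such a bulk sample, fewer cells holding a strand and less of it per cell cannot be told apart. The intervals given below are 95% Wilson intervals, which cover counting error only, and PCR duplicates left in the counts would make them too narrow.

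Together the 10 passenger strands made up 0.789% of replicate 1 and 0.827% of replicate 2, or 0.808% ± 0.027 of all miRNA counts (SD, n = 2 libraries here and wherever a mean ± SD is given). The guides of the same hairpins, also 10 names, held 17.4% ± 0.55. The members therefore came to 4.44% of the summed guide counts in replicate 1 and 4.87% in replicate 2. One strand accounted for most of the sum: miR-17-3p held 67.8% of the members' counts in replicate 1 and 68.6% in replicate 2. Without miR-17-3p the other 9 members held 0.257% ± 0.0043 of the library. By cluster, the 6 members from miR-17/miR-92a held 0.649% ± 0.017, the 3 from miR-106b/miR-25 held 0.138% ± 0.0090, and miR-106a-3p alone 0.0212% ± 0.0012. The 6 members on a 3p arm held 0.771% ± 0.031 and the 4 on a 5p arm held 0.0371% ± 0.0036.

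**Figure D1:**
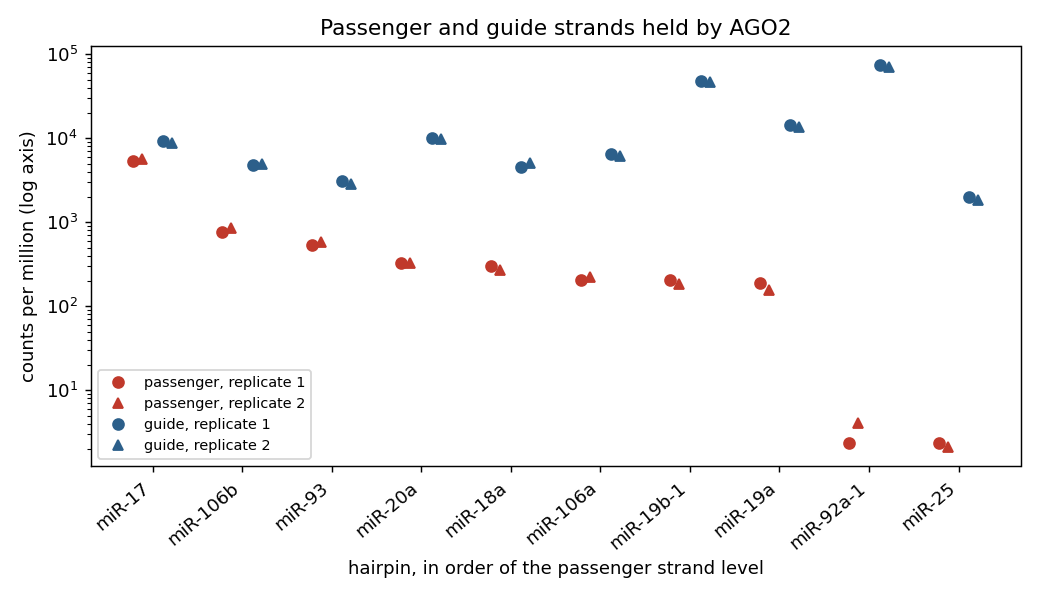
CPM, counts scaled to a library total of 1000000 (log axis), of the passenger strand (red, left) and the guide strand (blue, right) of each of the 10 hairpins, with a circle for replicate 1 and a triangle for replicate 2. The passenger lies below its guide for every hairpin, by the least at miR-17 and by the most at miR-92a-1.

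miR-17-3p, which also has targets reported as a miRNA in its own right, stood at 5347 CPM (counts scaled to a library total of 1000000) in replicate 1 and 5670 in replicate 2. Its share of 0.535% (interval 0.531 to 0.539) and 0.567% (0.564 to 0.570) placed it 32nd of all names in each library. By the difference in log2 share averaged over the libraries, the name nearest to it was miR-294-3p of the miR-290/miR-295 cluster, with 0.518% ± 0.046, at a distance of 0.13. miR-17-3p exceeded miR-18a-5p, the guide strand of the next hairpin in its own cluster, which stood at 4552 and 5029 CPM. It lay below its own guide, miR-17-5p, at 9320 and 8824 CPM.

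The passengers of the miR-106b/miR-25 cluster, which lies within an intron of the replication gene Mcm7, took very unequal places. miR-106b-3p was the second most abundant member, with 774 and 853 CPM, or 0.0814% ± 0.0056. miR-93-3p followed with 537 and 585 CPM, or 0.0561% ± 0.0034. Both were higher in replicate 2, and the libraries kept their order. miR-25-5p, from the hairpin of the same cluster whose guide belongs to the miR-92 family, was with miR-92a-1-5p one of the 2 rarest members, with 30 counts in replicate 1 and 48 in replicate 2. Between miR-93-3p and miR-25-5p lay a factor of 225 in replicate 1 and 279 in replicate 2, whereas their guides differed 1.54-fold and 1.55-fold.

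The remaining passengers from miR-17/miR-92a and miR-106a formed a narrow band. miR-20a-3p stood at 328 and 323 CPM, and miR-18a-3p at 301 and 273. miR-106a-3p had 204 CPM in replicate 1 and 220 in replicate 2, and miR-19b-1-5p had 204 and 183. miR-19a-5p had 188 and 157, so that these 5 strands lay between 157 and 328 CPM. Far below them was miR-92a-1-5p, the partner of the most abundant guide of the cluster, with 30 counts in replicate 1 and 93 in replicate 2, or 2.39 and 4.06 CPM.

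Most places in this order were the same in both replicates. Of the 9 neighbouring pairs, 7 differed in mean share by more than the larger of their SDs. In both libraries 7 pairs, not all of them the same ones, kept their order. An SD from 2 libraries is itself uncertain and does not settle an order. miR-106a-3p and miR-19b-1-5p changed order, since miR-106a-3p had 2565 counts and miR-19b-1-5p 2566 in replicate 1, but 5050 and 4189 in replicate 2. The gap between miR-19b-1-5p and miR-19a-5p was smaller than the SD of miR-19a-5p, although the order was the same in both libraries. miR-92a-1-5p and miR-25-5p could not be ordered, with 30 counts each in replicate 1. By the same average over the libraries, the names nearest in share were miR-130b-5p for miR-18a-3p, miR-500-3p for miR-106a-3p, miR-674-3p for miR-19a-5p, miR-361-5p for miR-20a-3p, miR-193b-3p for miR-19b-1-5p, miR-429-3p for miR-106b-3p and miR-467d-5p for miR-93-3p, with mean absolute differences between 0.01 and 0.08 in log2 share. For miR-92a-1-5p and miR-25-5p the nearest name with at least 100 counts was miR-667-5p, at a distance of 1.00 and 1.47 in log2 share.

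The second quantity was the ratio of each passenger to the guide of its own hairpin, which does not depend on the library total. All 10 members were below their guide in both libraries. The list was made with earlier results of these data known, so this count is no test of the label. miR-18b-3p, a listed passenger of these clusters but no member, exceeded its other arm, with ratios of 2.75 and 2.16. The ratios spanned 4 orders of magnitude, and their median was 0.0317 in replicate 1 and 0.0344 in replicate 2. miR-17-3p had the highest ratio, with 0.574 in replicate 1 and 0.643 in replicate 2, a mean of 0.608 ± 0.049. Put as a share of both arms, miR-17-3p was 36.5% (interval 36.2 to 36.7) and 39.1% (39.0 to 39.3), so that the guide miR-17-5p outnumbered it only 1.74-fold and 1.56-fold.

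miR-93-3p stood at a ratio of 0.175 and 0.202 to miR-93-5p, and miR-106b-3p at 0.160 and 0.174 to miR-106b-5p. These hairpins are neighbours in their cluster, and the ratio of miR-93 was 1.09 times and 1.16 times that of miR-106b in the libraries. miR-18a-3p had a ratio of 0.0661 and 0.0543 to miR-18a-5p. miR-106a-3p had 0.0311 and 0.0360 and miR-20a-3p 0.0322 and 0.0327, and this was the only neighbouring pair of the 9 by ratio that changed order between the libraries and differed by less than an SD. All of these strands are 3p arms.

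The 4 members on a 5p arm had the 4 lowest ratios. miR-19a-5p stood at 0.0131 and 0.0114 to miR-19a-3p. miR-25-5p stood at 0.00120 and 0.00112 to miR-25-3p, with 831 and 889 guide counts to each passenger count. miR-19b-1-5p stood at 0.00422 and 0.00394 to miR-19b-3p, and miR-92a-1-5p at 3.2e-05 and 5.78e-05 to miR-92a-3p. The guides miR-19b-3p and miR-92a-3p also come from the hairpins miR-19b-2 and miR-92a-2 of the miR-106a/miR-363 cluster, so these ratios are lower bounds for the hairpins miR-19b-1 and miR-92a-1. miR-92a-1-5p was 0.00320% (0.00224 to 0.00457) and 0.00578% (0.00472 to 0.00708) of both arms.

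**Figure D2:**
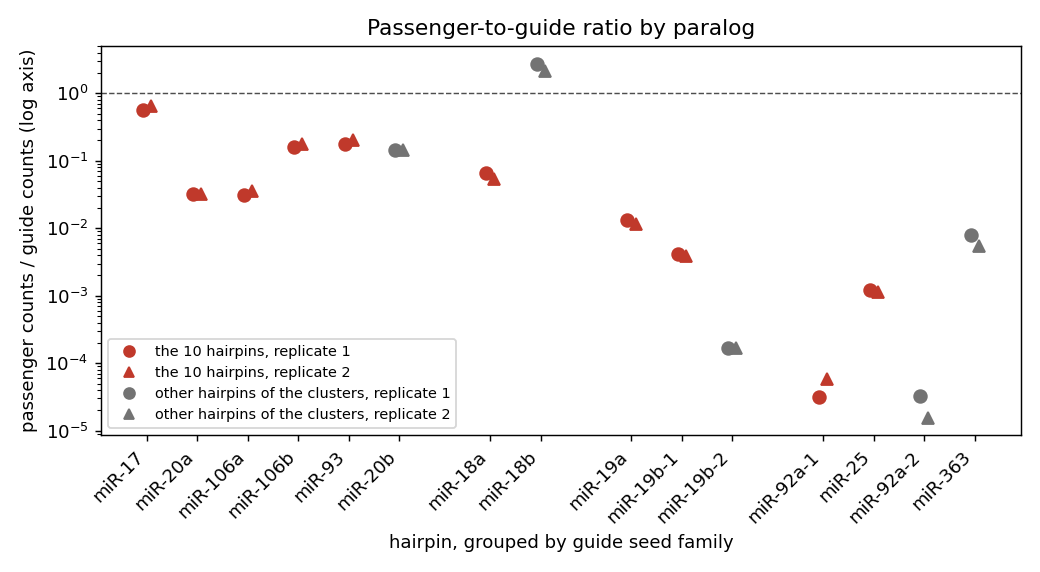
Passenger counts divided by guide counts (log axis) for the 10 hairpins (red) and the other 5 hairpins of the 3 clusters (grey), grouped by the seed family of the guide, with a circle for replicate 1 and a triangle for replicate 2. The dashed line marks equal counts, and miR-18b, at 2.75 and 2.16, is the only hairpin above it.

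Some related hairpins with nearly the same guide had very different passenger levels, and others did not. miR-19a-5p had 0.920 and 0.858 times the counts of miR-19b-1-5p, while miR-19a-3p had 0.295 and 0.296 times those of miR-19b-3p, a guide that also comes from miR-19b-2. miR-17 and miR-106a gave guides that differed 1.42-fold and 1.44-fold in counts, with miR-17-5p the higher, but miR-17-3p exceeded miR-106a-3p 26.2-fold and 25.7-fold. The ratio of passenger to guide was accordingly 18.4 and 17.8 times as high for miR-17 as for miR-106a. Because these guides differ by 1 base, the ratio was also taken over their summed counts, an alternative chosen after seeing the data. It gave 0.358 for miR-17-3p and 0.0138 for miR-106a-3p. Both then have the same denominator, so these values differ only as the passengers do. They cannot show how far the difference in ratio depends on the assignment of guide reads. The hairpins are shown with the passenger strand in capitals and the rest in lower case. miR-17 lies on chromosome 14, plus strand, at chr14:115043671-115043754, and miR-106a on chromosome X, minus strand, at chrX:52742503-52742567 (GRCm38.p6).
miR-17: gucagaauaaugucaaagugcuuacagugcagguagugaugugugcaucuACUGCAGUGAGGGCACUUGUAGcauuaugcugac
miR-106a: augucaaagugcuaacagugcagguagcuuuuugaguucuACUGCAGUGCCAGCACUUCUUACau

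The miR-20 and miR-18 paralogs differed in their passengers too. miR-20a-3p fell short of miR-20b-3p, its counterpart in the miR-106a/miR-363 cluster, which had 968 and 932 CPM, although the guide miR-20b-5p had only 0.668 and 0.645 times the counts of miR-20a-5p. The ratio of miR-20b-3p to its guide was 0.143 and 0.146, which is 4.42 and 4.47 times that of miR-20a-3p. miR-18a-3p and miR-18b-3p stood the other way round from their guides. miR-18a-3p had 0.564 and 0.613 times the counts of miR-18b-3p, while miR-18a-5p had 23.5 and 24.4 times those of miR-18b-5p. In the hairpin miR-18b the strand named for the 3p arm was thus the more abundant, at 73.3% (72.4 to 74.2) and 68.3% (67.6 to 69.1) of both arms. The 3p strands of these hairpins are close in sequence, with 2 differences over 21 shared positions when shifted by 1 base, and the shift gives miR-18b-3p another seed. Mixing of reads between the strands of miR-18a and miR-18b was not tested.
miR-18a-3p: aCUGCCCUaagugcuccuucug
miR-18b-3p: uACUGCCCuaaaugccccuucu

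Passenger strands can tell apart hairpins that yield the same guide. miR-19b-1-5p, from chromosome 14, exceeded miR-19b-2-5p, from chromosome X, 25.2-fold and 23.5-fold, with 2566 counts in replicate 1 and 4189 in replicate 2 against 102 and 178. The guide counts of miR-19b-3p cannot be divided between these hairpins. The fold between the passengers does not give that division, since paralogs such as miR-17 and miR-106a differed in the ratio of passenger to guide. For miR-92a the passengers of both hairpins were rare: miR-92a-1-5p had 30 and 93 counts and miR-92a-2-5p had 31 and 25. Here the libraries did not agree on an order. miR-363-5p, the remaining passenger of the miR-106a/miR-363 cluster, had 216 and 360 counts and a ratio of 0.00795 and 0.00554 to miR-363-3p. The 5 strands of that cluster listed as passengers which are not members held 0.147% ± 0.0090 of the counts in all. Of this, miR-18b-3p, the more abundant arm of its hairpin, held 0.0490% ± 0.0062.
miR-19b-1-5p: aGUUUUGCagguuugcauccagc
miR-19b-2-5p: aGUUUUGCagauuugcaguucagc

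Summed by seed, the strands with the seed CUGCAGU, which are miR-17-3p, miR-20b-3p and miR-106a-3p, held 0.667% ± 0.021 of the counts. miR-17-3p made up 82.0% and 83.1% of that sum and miR-106a-3p 3.13% and 3.23%. The seed GUUUUGC was held by miR-19b-1-5p and miR-19b-2-5p, with 0.0202% ± 0.0015 together. miR-18a-3p shared its seed with miR-7069-3p, which had 10 and 37 counts. The seeds of miR-20a-3p, miR-106b-3p, miR-93-3p, miR-92a-1-5p and miR-25-5p occurred in no other name with a RefSeq sequence in the tables.

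To place the members among other hairpins, the less abundant arm was expressed as a percentage of both arms for 262 hairpins. Their arms summed to 100 counts or more in both libraries and were paired by name. The members miR-19b-1 and miR-92a-1, which do not pair by name, were added. Hairpins such as miR-19b-2 and miR-92a-2 were not, so the 262 are not all hairpins. The median of the 10 members was 3.20%, and that of all 262 hairpins was 2.22%, with quartiles of 0.131% and 11.6%. At or below the members' median lay 56.1% of the hairpins. Of the 10 members, 3 reached 10% of both arms, namely miR-17-3p, miR-93-3p and miR-106b-3p, against 27.5% of the 262 hairpins. At 1% it was 7 members, against 58.0% of the 262. The members were therefore spread over the range and not gathered at one end of it. miR-17-3p lay near the top, with 14 hairpins of the 262 having a more even pair of arms. Near the bottom was miR-92a-1-5p, with 11.8% of the hairpins at or below it. The place of miR-17-3p takes the counts of miR-17-5p as given. With the guides of miR-17 and miR-106a summed, its ratio was 0.358 in place of 0.608, and its place was not tested.

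**Figure D3:**
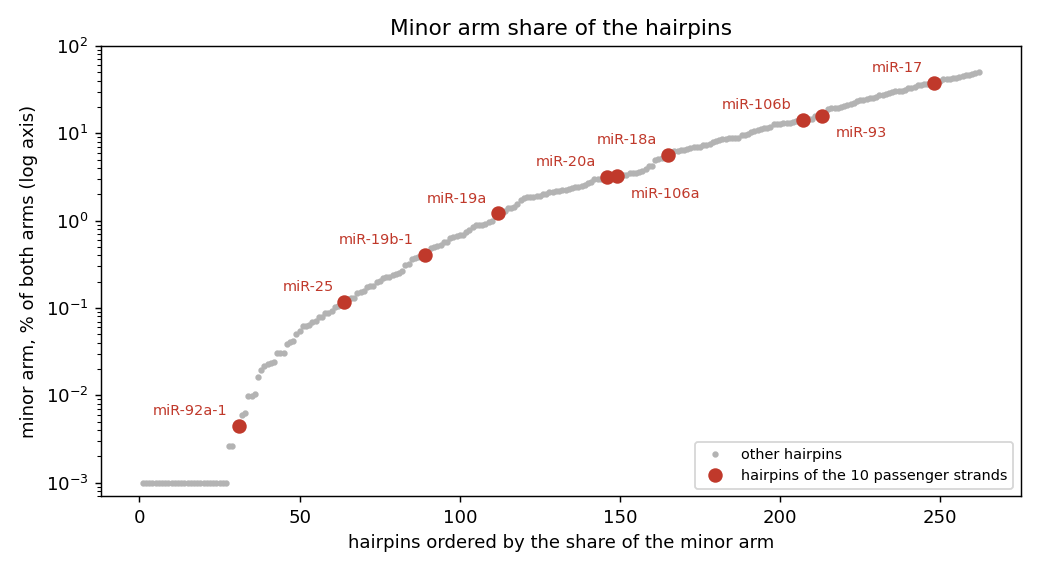
Share of the less abundant arm in both arms (%, log axis, mean of the replicates) for 262 hairpins in ascending order, with the 10 hairpins of the members in red. The members run from miR-92a-1 at 0.00449% to miR-17 at 37.8%, and the 27 hairpins under 0.001%, of which 25 had a minor arm at 0, are drawn at 0.001%.

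The replicates gave similar values for the 8 members with at least 100 counts in each library. Of these, 0 differed 1.5-fold or more in share, against 4.92% of all 427 such miRNAs. In the ratio of passenger to guide, 0 of the 8 differed 1.5-fold, against 12.2% of 115 hairpins whose minor arm had as many counts. With only 8 members, 0 is not far from these shares and says nothing particular about the members. The share was higher in replicate 2 for 5 of the 10 members and the ratio for 6 of 10. As replicate 2 over replicate 1, the median share was 1.02 for the 8 members and 0.973 for the 427 miRNAs. The median ratio of the minor to the major arm was 1.05 for the 8 and 1.003 for the 115 hairpins. The members from the miR-106b/miR-25 cluster with high counts, miR-106b-3p and miR-93-3p, were 1.10 and 1.09 times as abundant in replicate 2, and miR-19a-5p was lowest among the 8, at 0.835 times. Of the rare strands, miR-92a-1-5p was 1.70 times as abundant in replicate 2, with an exact interval of 1.12 to 2.66 for counting error. Its ratio to the guide was 1.80 times as high there. miR-25-5p was 0.877 times as abundant, with an interval of 0.545 to 1.43. With 1 group of 2 libraries, no test between conditions could be made.

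The ends of the strands were compared in the RNAfold prediction of each hairpin, for the 9 members with a sequence. In 8 of these 9 the first 4 bases of the passenger had more G-C pairs than the first 4 bases of the guide, against 86 of 186 hairpins (46.2%) in which the minor arm had more, and 31 (16.7%) in which it had fewer. The exception was miR-19b-1, with 1 G-C pair at the passenger end and 2 at the guide end. The first base was A in 8 of the 9 passengers, the exception being miR-106b-3p with C, against 37.1% of the minor arms of 197 hairpins. The members are paralogs, and 5 of them open with the same ACUGC, so these counts are not of independent hairpins. The guides began with U in 5 of the 9 and with C in 4, those of miR-17, miR-106a, miR-93 and miR-25, against 49.2% and 15.7% of the major arms of the 197. miR-17 and miR-106a had the same first bases on both strands and the same G-C pairs, 2 for the passenger and 0 for the guide. Their ratios differed 18.1-fold ± 0.42. miR-93, with a ratio of 0.189 ± 0.019, and miR-25, with 0.00116 ± 0.000055, shared these first bases and G-C pairs. Paired bases at the passenger and guide ends were 3 and 2 for miR-17 and miR-106a, 4 and 2 for miR-93, and 4 and 3 for miR-25. The median minor arm was 9.56% in the 4 members whose guide began with C, which ran from 0.116% to 37.8%. It was 3.15% in the 5 with U, which ran from 0.00449% to 14.3%. Over all 197 hairpins, members included, these medians were 3.37% and 1.57%. Whether these features bear on the ratio was not tested.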

How the data were processed

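Each of the 2 miRNA libraries came with a table, deposited by the authors, of unnormalized read counts by mature miRNA name. Per the labels' protocols, RNA was isolated with Spy3-AGO2 on a resin, cut from a gel, ligated to adapters with random bases and sequenced as single-end reads. Bowtie2 2.4.2, STAR 2.5.2a, cutadapt 2.10 and UMI-tools appear in the submitters' processing notes, without roles, beside the mm10 build. The sources used here do not say whether counts were collapsed by molecular identifier. An unnamed final row with 0 counts was dropped. The list of target peaks was not used.

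Shares of the library total, ratios of passenger to guide counts and their mean and SD over the libraries were computed, with 95% Wilson intervals and no pseudocount. Arms were paired by name, with miR-19b-1 and miR-92a-1 added. Ratios between libraries were counted past 1.5-fold. Alternatives used TMM factors from edgeR 4.0.16 and size factors from DESeq2 1.42.0. RNAfold 2.7.2 predicted the folds. Only the 1.5-fold call on the passenger-to-guide ratio between replicates was tried on simulated data. These were Poisson counts with planted 2-fold changes, which lack the spread between real libraries beyond counting error. The software was Python 3.11.15, numpy 2.4.6, pandas 2.3.3, scipy 1.17.1 and R 4.3.3. The rule for names took the members, their guides, the other strands of the 3 clusters, the nearest name in share and names with the same seed. Members, lists and rules were chosen with earlier results of these data known.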

Additional observations from a re-analysis of the deposited data

How the results depend on the processing

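Replicates left out in turn gave a summed share of 0.789% to 0.827%, a median ratio of 0.0317 to 0.0344, 55.3% to 56.5% of hairpins at or below the members' median, and 3 members reaching 10% either way. The summed share was 1.06% without miR-290a-5p in the total, 0.773% with DESeq2 size factors, which also rescale the totals, and 0.257% without miR-17-3p. The median ratio was 0.0472 over members with at least 100 counts, where the 2 lowest drop out, and 0.0232 with the guides of miR-17 and miR-106a summed. The median ratio between replicates, 1.024, became 1.028 with TMM and 1.033 with DESeq2 size factors. The share of hairpins at or below the members' median, 56.1%, was 50.3% at a minimum of 10 counts (382 hairpins), 58.2% at 1000 (194) and 61.4% with arms paired through the RefSeq hairpin (241), the last chosen after seeing the data. At a threshold of 20% of both arms, 1 member passed in place of 3. miR-92a-1-5p reached a ratio of 6.92e-05 with miR-92a-2-5p added. No paired analysis was possible because only the miRNA libraries have values per sample, so no groups were compared. Depth limits miR-92a-1-5p and miR-25-5p, which had fewer than 100 counts in each library.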
